A study of Mus musculus with 6 samples.

Results

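The strong accessible intervals that lie far from any protein-coding gene start were examined in a pooled ATAC-seq map of mouse kidney cortex. ATAC-seq, the sequencing assay for transposase-accessible chromatin, marks open DNA by where the Tn5 enzyme can insert adapters. An interval belonged here when its highest summit was on an autosome, outside every protein-coding gene, more than 50 kb from the nearest protein-coding transcription start site (TSS) and more than 1 kb from any long non-coding RNA (lncRNA) TSS, with a fold enrichment over background of at least 5. Of the 279569 distinct intervals of the list, 8534 (3.05%) met this rule. They were selected on a measured value, the fold enrichment at the summit with the best q, so their strength is a description and was not tested.

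The libraries came from 3 WT mice, which by the methods were littermate Acly fl/fl mice without Cre, and from 3 Acly cKO mice. The Acly cKO mice carried the same Acly fl/fl alleles together with Ksp-Cre (Cdh16-Cre), a transgene that recombines broadly in renal tubule epithelium, so that ATP citrate lyase (ACLY), the enzyme that makes acetyl-CoA from citrate, is deleted there and not in other kidney cells. All 6 libraries have the treatment label Control, and the sources used here give no age for these animals. The WT libraries were labelled batch 1 or 2 and the Acly cKO libraries batch 4 or 5, and genotype and batch cannot be told apart. The deposited peak list is 1 call, and its peak names mark it as made on all libraries together. Without a value per library there is no error between animals, the genotypes were not compared and depth is unknown. The methods also count WT libraries deposited earlier, and the files do not show whether these entered the call. Intervals quoted after shares and medians are 95% intervals for counting error only.

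Open chromatin far from gene starts usually marks enhancers, which act on promoters over long distances by looping, or insulator sites bound by CTCF, the zinc-finger protein that anchors chromatin loops together with cohesin. Enhancers of kidney tubule cells are known for sites of HNF1 and HNF4, homeodomain and nuclear receptor factors that maintain the tubule epithelium, and many enhancers of many cell types hold sites of AP-1, the Fos and Jun dimer, NF1 and TEAD factors. A nearest gene is a position only, since an enhancer may skip the gene next to it.

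To show what these regions look like, windows around the summit are printed for the strongest remote interval with each of 6 motifs within 50 bp of its summit. All are the plus strand of GRCm39, 5′ to 3′, and capitals mark the matched motif. The CTCF window is chr10:126166599-126166699, the HNF1 window chr12:7870420-7870520, the HNF4 window chr3:37961842-37961942, the NF1 window chr2:49239941-49240041, the AP-1 window chr8:32011103-32011208 and the TEAD window chr12:25266890-25266990.
CTCF, nearest gene Lrig3: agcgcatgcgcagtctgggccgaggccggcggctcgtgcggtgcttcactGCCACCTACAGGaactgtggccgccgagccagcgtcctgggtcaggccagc
HNF1, nearest gene Apob: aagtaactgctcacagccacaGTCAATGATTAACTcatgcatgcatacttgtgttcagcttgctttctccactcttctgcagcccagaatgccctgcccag
HNF4, nearest gene Gm5148: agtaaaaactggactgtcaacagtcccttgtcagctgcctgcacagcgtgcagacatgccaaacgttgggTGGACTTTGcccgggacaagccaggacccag
NF1, nearest gene Mbd5: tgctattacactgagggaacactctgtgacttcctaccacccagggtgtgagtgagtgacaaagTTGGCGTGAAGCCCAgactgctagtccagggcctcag
AP-1, nearest gene Pofut3: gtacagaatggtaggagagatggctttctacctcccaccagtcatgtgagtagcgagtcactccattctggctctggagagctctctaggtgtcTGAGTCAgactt
TEAD, nearest gene Id2: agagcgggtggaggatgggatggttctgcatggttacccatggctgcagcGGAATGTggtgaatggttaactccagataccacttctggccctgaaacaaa

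The CTCF example had a fold enrichment of 47.7 at 318 kb from the TSS of Lrig3, and its site lay 5.5 bp from the summit. The HNF1 example had a fold enrichment of 52.9 at 157 kb from Apob, which encodes the main protein of low-density lipoprotein. The HNF4 example reached 32.5, the NF1 example 73.8 and the TEAD example 51.9. The AP-1 example reached 61.1 at 320 kb from Pofut3 and was the strongest remote interval beyond 200 kb and up to 500 kb. Fold enrichment is a linear ratio at the summit of the pooled call, so these values rank positions within 1 map and carry no spread between animals.

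The rule narrowed the list in steps. Of 274808 autosomal intervals, 106377 had their highest summit outside protein-coding genes, 44217 of these lay more than 50 kb from a protein-coding TSS and 39386 of those also lay more than 1 kb from a lncRNA TSS. A fold enrichment of at least 5 was reached by 21.7% of these 39386 remote intervals, and the remote intervals made up 12.7% of the 67089 autosomal intervals of that strength. At the limit, 144 intervals shared the lowest value kept, 5.04, and 117 shared the highest value left out, 4.98. An example just inside was chr9:85977993-85978961, nearest to Tpbg, and an example just outside was chr1:11002715-11004000, nearest to Prex2. Many intervals share a value, and the limit cuts through a continuous range of them.

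The members' fold enrichment had a median of 8.31 (8.18 to 8.45) and ran from 5.04 to 884. A value under 10 was found in 5313 of them (62.3%), 2437 (28.6%) lay from 10 to 20, 757 (8.87%) from 20 to 50, 21 from 50 to 100, and 6 at 100 or more. For comparison at the same fold limit, the median was 8.77 in 11255 intergenic intervals between 3 and 50 kb from a TSS, called nearer intergenic intervals here, 8.64 in 23397 intervals inside protein-coding genes away from starts, and 27.9 in 15182 intervals within 1 kb of a protein-coding TSS, called promoters. Every class was cut at the same fold limit, which sets a floor to these medians. Above it the 3 classes away from starts had close medians, and promoters had the highest. The remote intervals were narrower than the other classes, with a median width of 1089 bp. It was 1234 bp in nearer intergenic sequence, 1431 bp in gene bodies and 2924.5 bp at promoters. A single summit was called in 31.8% (30.8% to 32.8%) of the remote intervals, 23.5% of the nearer intergenic ones and 6.22% of the promoters.

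The distance to the nearest protein-coding TSS had a median of 131 kb. Of the 8534 intervals, 3179 lay at 50 to 100 kb, 2645 at 100 to 200 kb, 2067 at 200 to 500 kb, 527 at 500 to 1000 kb and 116 beyond 1000 kb. The median fold enrichment in these bins went from 8.64 in the nearest to 7.40 in the farthest, and the median width from 1157 to 895 bp. The farthest member was chr14:82480752-82481988, 2200 kb from Pcdh17, a protocadherin of neurons, with a fold enrichment of 9.43. Other members at 2131 and 1924 kb from Pcdh17 had 7.46 and 5.37, and members on chromosome 18 at 2195 kb from Pik3c3 and 1954 kb from Celf4 had 6.15 and 8.31.

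**Figure D1:**
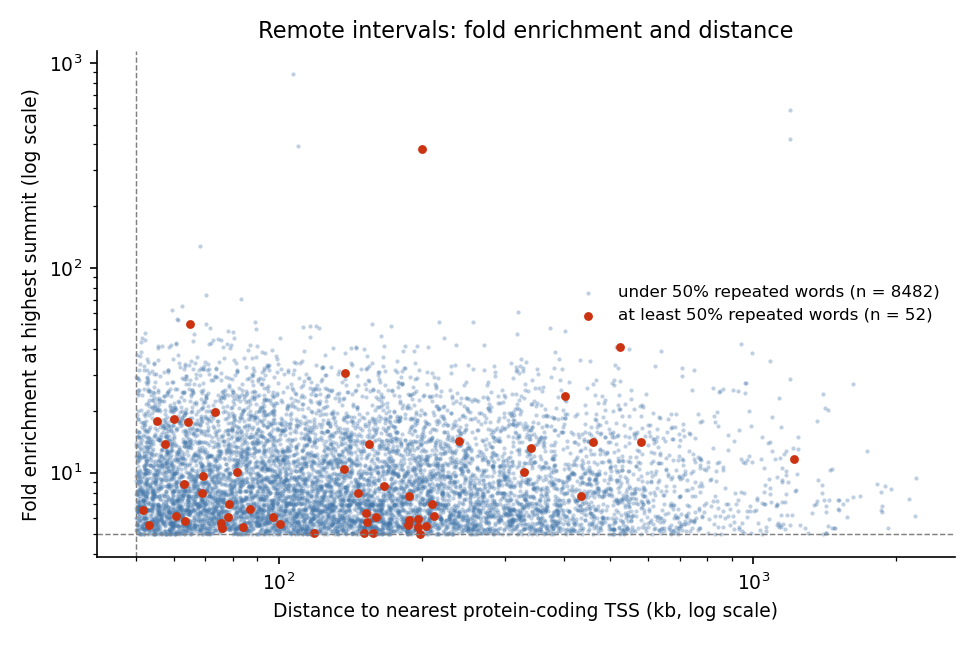
Each point is a remote interval, with its distance to the nearest protein-coding TSS (kb, log scale) across and the fold enrichment at its highest summit (log scale) up, and dashed lines mark the limits of 50 kb and 5. Most of the 8534 points lie under a fold enrichment of 20 at every distance, 6 reach 100 or more, and the 52 red points are intervals made largely of sequence words repeated in the genome.

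Long distances also hold more sequence, so counts were divided by the known bases at each distance, outside protein-coding genes and away from lncRNA starts. Sequence that uniquely mapped reads cannot cover and blacklisted sequence were not taken out, so part of it could hold no member. Sequence that met the position rule came to 870 Mb, or 36.3% of the autosomes, and held 9.80 members per Mb. Strong intervals numbered 32.6 per Mb at 3 to 5 kb from a protein-coding TSS, 29.5 at 10 to 20 kb, 18.3 at 50 to 100 kb, 13.5 at 100 to 200 kb, 7.51 at 200 to 500 kb, 3.46 at 500 to 1000 kb and 1.61 beyond 1000 kb. The density went down at every step from the gene starts into the deserts. Intervals of any strength numbered 161 per Mb at 3 to 5 kb, 74.5 at 50 to 100 kb and 17.8 beyond 1000 kb. The share of them that was strong was 20.3% at 3 to 5 kb, highest at 10 to 20 kb with 26.6%, 24.5% (23.8% to 25.2%) at 50 to 100 kb and 9.01% (7.57% to 10.7%) beyond 1000 kb. Among chromosomes, members per Mb of remote sequence ranged from 6.78 on chromosome 19 to 13.4 on chromosome 13, with a median of 9.38.

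Base composition was taken from the 200 bp around each highest summit. The median GC content of the remote windows was 48.0% (47.5% to 48.0%), against 50.5% in nearer intergenic windows, 50% in gene bodies and 64.0% at promoters. Windows 5 kb to either side of the remote summits that overlapped no interval had a median of 41.5% over 14301 windows, so the members were richer in G and C than the sequence around them. Within the members, median GC was 49.5% at 50 to 100 kb from a TSS and 42.75% beyond 1000 kb. The ratio of observed to expected CpG dinucleotides had a median of 0.183, against 0.214 in nearer intergenic windows and 0.748 at promoters, where CpG islands are common, and 3.32% (2.96% to 3.72%) of the remote windows reached 60% GC against 65.4% of promoter windows.

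Short sequence motifs were searched in the same 200 bp on both strands. For AP-1 the letters TGANTCA were searched, for HNF4 CAAAGTCCA, for the estrogen-related receptor (ERR) TCAAGGTCA, for TEAD ACATTCC, for SP factors GGGCGG and for GATA factors AGATAAG. The CTCF and NF1 motifs were matched with 1 mismatch allowed, HNF1 and the DR1 repeat of nuclear receptors with 2. A DR1 match was also in 7 (4.40%) of the 159 remote windows with HNF4 letters and 9 (14.5%) of the 62 with ERR letters. Over all members it was in 8.94%. A match describes letters and is not evidence that a factor was bound.

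AP-1 letters were the most frequent of the 18 motifs in remote windows, in 1926 or 22.6% (21.7% to 23.5%), followed by CTCF in 1113 or 13.0% (12.3% to 13.8%), NF1 in 852 or 9.98% (9.37% to 10.6%), DR1 in 763 or 8.94%, HNF1 in 741 or 8.68% (8.10% to 9.30%), TEAD in 642 or 7.52%, TFAP2 in 565 or 6.62%, SP in 379 or 4.44%, FOX in 325 or 3.81% and POU in 170 or 1.99%. HNF4 letters were in 159 or 1.86% (1.60% to 2.17%). Length and allowed mismatches differ between the motifs, so this order depends on the search settings. With 1 mismatch more HNF4 was in 13.7%, and with 1 fewer HNF1 was in 1.24%. The windows 5 kb away held AP-1 letters in 6.10%, CTCF in 1.19%, NF1 in 1.47%, HNF1 in 0.69% and HNF4 in 0.21%. Weighted to the GC content of the members, the windows 5 kb away gave a ratio of members to flanks of 27.1 for HNF1, 9.12 for HNF4, 8.41 for CTCF, 4.55 for NF1, 4.05 for AP-1, 2.74 for TEAD and 2.01 for DR1. GATA letters went the other way with a ratio of 0.659, in 1.78% of the members against 3.05% of the windows 5 kb away.

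Compared with nearer intergenic intervals of the same strength, the remote intervals held CTCF motifs less often, in 13.0% against 21.8% (21.0% to 22.6%), and HNF1 motifs more often, in 8.68% against 5.86% (5.44% to 6.30%). AP-1 letters stood at 22.6% against 19.8% and TEAD at 7.52% against 5.66%, while SP letters stood at 4.44% against 7.69%. HNF4, DR1 and NF1 were within counting error of each other, at 1.86% against 1.77%, 8.94% against 8.86% and 9.98% against 10.3%. GC content moves with these shares. Among windows of 40% to 50% GC only, CTCF remained lower in the remote intervals, at 12.7% (11.7% to 13.7%) against 21.0% (19.8% to 22.1%), whereas HNF1 was at 10.3% (9.47% to 11.2%) against 9.19% (8.40% to 10.1%), with overlapping intervals. The intervals overlapped there also for AP-1, at 23.2% (22.0% to 24.5%) against 21.7% (20.5% to 22.9%), and for TEAD, at 7.85% (7.11% to 8.66%) against 6.51% (5.84% to 7.25%), while SP letters were at 1.69% (1.35% to 2.10%) against 2.92% (2.47% to 3.44%). In gene bodies CTCF was in 14.3% (13.8% to 14.7%) and HNF1 in 6.47% (6.16% to 6.79%). Within 40% to 50% GC, gene bodies had CTCF in 13.8% (13.1% to 14.5%) and HNF1 in 9.92% (9.36% to 10.5%). Both intervals overlapped those of the remote windows in that range.

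**Figure D2:**
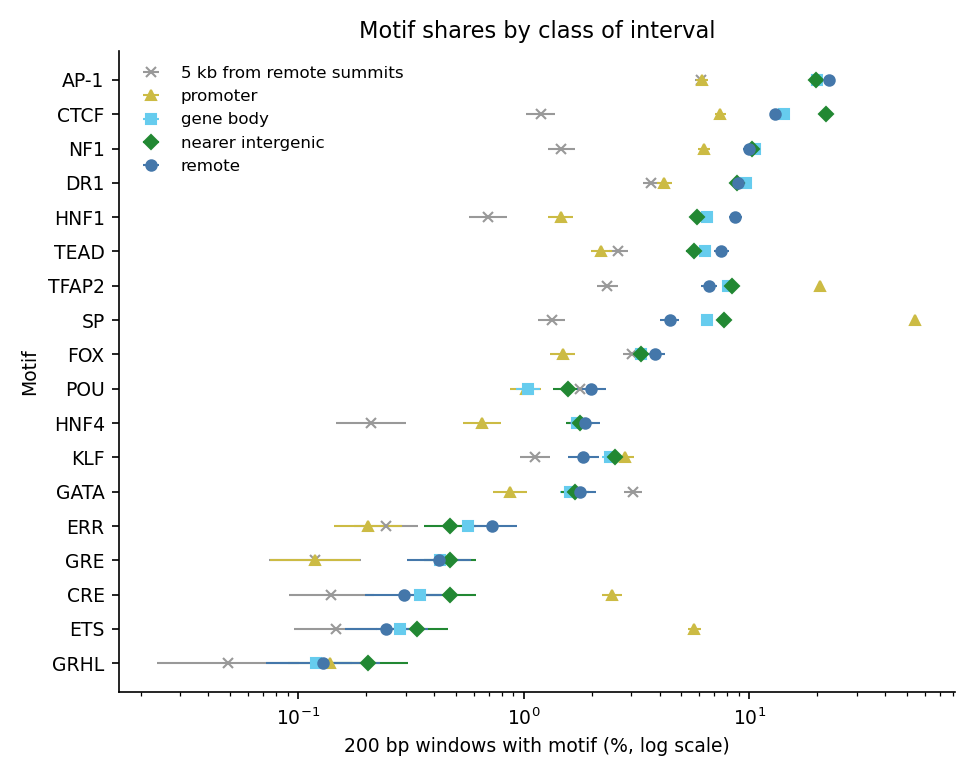
The share of 200 bp summit windows that hold each motif (%, log scale) is shown for remote, nearer intergenic, gene body and promoter intervals with a fold enrichment of at least 5 and for windows 5 kb from remote summits, with bars for Wilson 95% intervals. CTCF is lower in remote than in nearer intergenic windows (13.0% against 21.8%), HNF1 is higher (8.68% against 5.86%), and promoters stand out by SP letters (54.5%). In gene bodies CTCF is at 14.3% and HNF1 at 6.47%.

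These shares moved along the distance scale. From 3 to 10 kb out to beyond 1000 kb, CTCF motifs went from 23.9% (22.5% to 25.4%) to 10.3% (6.02% to 17.2%) of strong intergenic intervals, with 15.04% at 50 to 100 kb and 10.5% at 200 to 500 kb. HNF1 motifs were in 5.69% at 3 to 10 kb, 6.42% (5.62% to 7.32%) at 50 to 100 kb, 8.51% at 100 to 200 kb, 10.9% at 200 to 500 kb, 13.5% (10.8% to 16.7%) at 500 to 1000 kb and 12.9% beyond. The windows 5 kb away moved from 0.556% at 50 to 100 kb to 0.923% at 500 to 1000 kb for HNF1. Within 40% to 50% GC the HNF1 share was not higher at the far end of the scale, with 9.45% (7.98% to 11.2%) at 3 to 10 kb and 8.33% (3.88% to 17.0%) beyond 1000 kb. Between them it was 8.54% (7.24% to 10.1%) at 50 to 100 kb, 10.8% at 100 to 200 kb, 11.4% at 200 to 500 kb and 12.5% (9.41% to 16.4%) at 500 to 1000 kb, and the intervals of these bins overlapped. CTCF within the same GC range was in 22.3% (20.2% to 24.7%) at 3 to 10 kb, 15.1% at 50 to 100 kb and 13.9% (7.72% to 23.7%) beyond 1000 kb. AP-1 letters stayed between 19.8% and 24.0% over the remote bins.

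**Figure D3:**
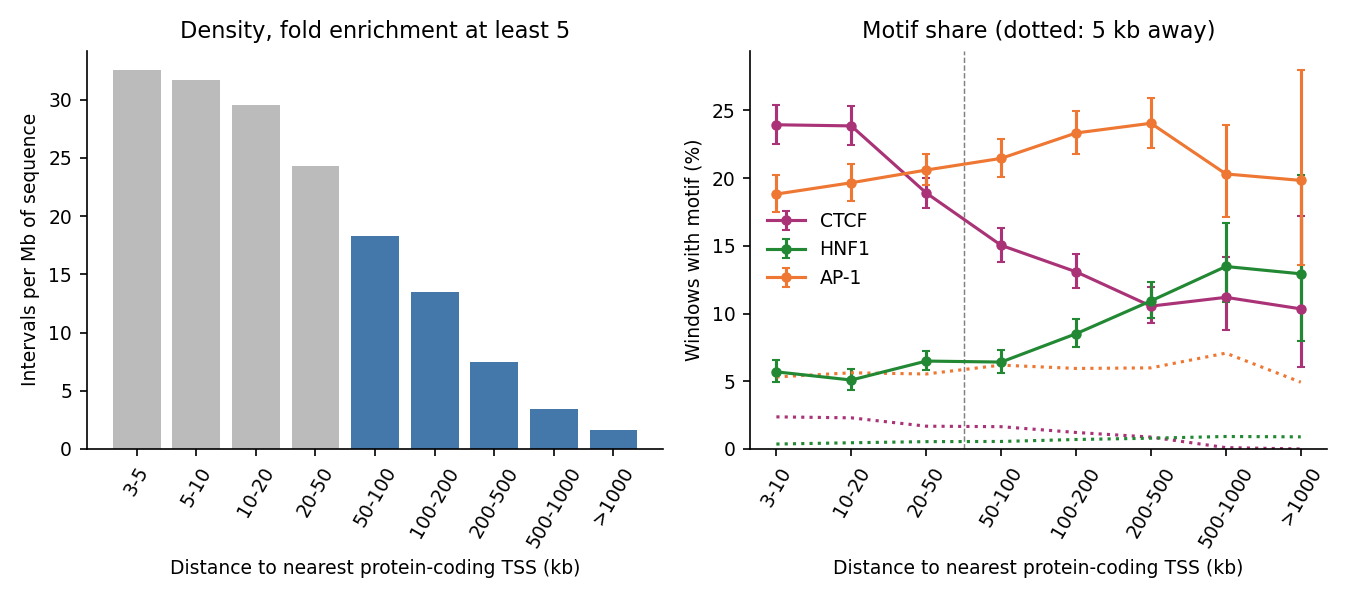
Left, strong intergenic intervals per Mb of sequence by distance to the nearest protein-coding TSS, with the remote bins in blue; right, the share of those intervals with a CTCF, HNF1 or AP-1 motif (%), with Wilson 95% bars and dotted lines for windows 5 kb away. Density goes from 32.6 to 1.61 per Mb, CTCF from 23.9% to 10.3%, and HNF1 from 5.69% to 12.9%, where only 116 intervals are left. Within 40% to 50% GC (not drawn), HNF1 is at 9.45% at the near end and 12.5% (9.41% to 16.4%) at 500 to 1000 kb. At the far end it is at 8.33% (3.88% to 17.0%), with 72 intervals.

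Above the fold limit, strength followed the CTCF and HNF1 motifs in opposite ways. Remote intervals under the limit had less of both, with CTCF in 4.81% and HNF1 in 2.67%. GC content and distance were not held fixed here. Among remote intervals with a fold enrichment of 5 to 10, CTCF motifs were in 14.8% and HNF1 motifs in 7.23% (6.56% to 7.96%), and at 20 or more CTCF was in 7.40% (5.77% to 9.45%) and HNF1 in 14.0% (11.8% to 16.6%). Members with an HNF1 motif had a median fold enrichment of 9.62, a median width of 1308 bp and a median distance of 170 kb. Members with a CTCF motif had a median fold enrichment of 7.79, a width of 913 bp and a distance of 115 kb, and 39.4% of them had a single summit against 24.3% of those with HNF1. Members with AP-1 letters lay between these, with a median fold enrichment of 8.64 and a width of 1065 bp.

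CTCF and HNF1 motifs shared a window with AP-1 letters less often than members in general held them. Of the 1113 remote windows with a CTCF motif, 65 (5.84%) also held AP-1 letters, against 22.6% of all members, and 8 held an HNF1 motif. Of the 741 with an HNF1 motif, 115 (15.5%) held AP-1 letters. The share with AP-1 letters was 17.7% of NF1 windows, 19.5% of HNF4 windows and 22.7% of DR1 windows, and NF1 windows held the TFAP2 letters GCCNNNGGC in 12.2%, against 6.62% of all members. None of the 7 motifs CTCF, HNF1, HNF4, DR1, ERR, NF1 and AP-1 was found in 3723 windows (43.6%), 4053 (47.5%) held 1 of them, 712 held 2, 45 held 3 and 1 held 4.

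Motif centres clustered at the summit. A CTCF motif centre lay within 50 bp of the summit in 11.7% of members and at 400 to 450 bp in 0.832%. For HNF1 these shares were 6.59% and 0.480%, for HNF4 1.48% and 0.152%, for NF1 7.59% and 1.25%, and for AP-1 17.0% and 3.12%. The closest CTCF match within 250 bp was at a median of 15.5 bp from the summit, HNF4 at 33 bp, HNF1 at 35.5 bp, AP-1 at 42 bp and NF1 at 43 bp, whereas FOX letters (TGTTTAC) were at 121 bp and GATA letters at 142 bp. Summit positions depend on the read shift set in the peak caller, and whether it was positive or negative is not settled by the sources used here.

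**Figure D4:**
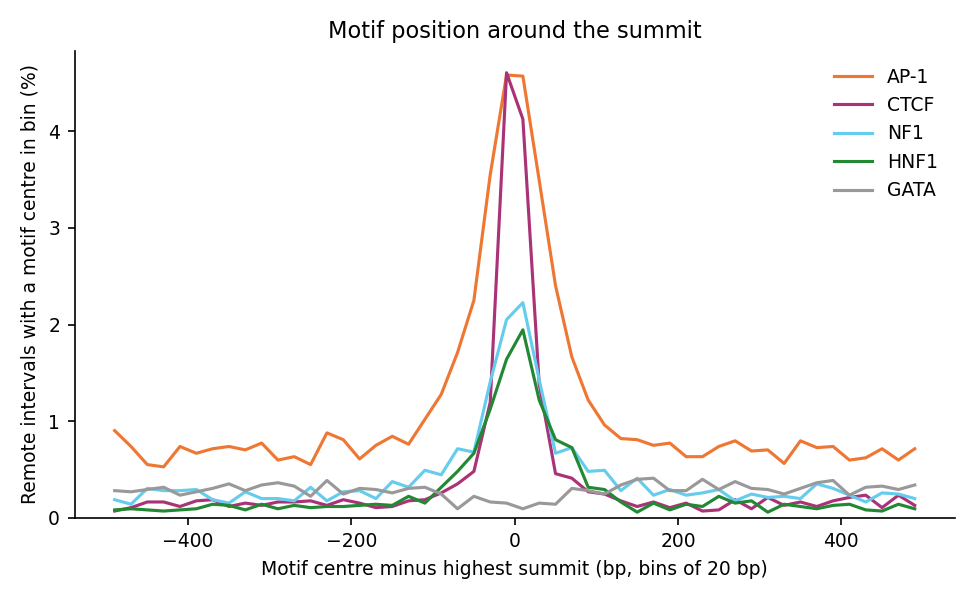
The share of remote intervals with a motif centre in each 20 bp bin (%) is plotted against the distance of the motif from the highest summit (bp) for AP-1, CTCF, NF1, HNF1 and GATA. AP-1, CTCF, NF1 and HNF1 peak at the summit, with CTCF the narrowest at a median of 15.5 bp, and GATA has no peak there.

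Remote intervals were joined into groups by their spacing. With consecutive summits within 50 kb joined, the 8534 members formed 3772 groups, in which 2022 members (23.7%) stood alone, 3476 (40.7%) were in groups of 2 to 4, 2032 (23.8%) in groups of 5 to 9 and 1004 (11.8%) in 75 groups of 10 or more. The median gap between neighbouring members on a chromosome was 36.5 kb, and 25.04% of the gaps were under 10 kb. Remote sequence held 1 member per 102 kb, and randomly scattered positions at that density would also form groups under this rule. Whether the members group beyond that was not tested.

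The group with the most members held 27 intervals at chr14:76859139-77190920, between Serp2 and Lacc1 on the minus strand. Their fold enrichment ran from 5.24 over a median of 9.23 to 37.3, and 6 of them had AP-1 letters while none had a CTCF, HNF1 or HNF4 motif. A group of 26 at chr10:111393728-111755030, between Phlda1, a gene induced by growth factors and stress, and Krr1, a ribosome assembly factor, reached 22.9 with a median of 6.87. A group of 25 at chr3:21845507-22077882, before Tbl1xr1, a subunit of nuclear receptor corepressor complexes, reached 54.1 with a median of 8.84. Another 25 at chr3:15010353-15330100 lay between Car2, the carbonic anhydrase of tubule acid handling, and Sirpd, and reached 21.2. A group of 24 at chr13:112030955-112258538, between Map3k1, a kinase of the Jun N-terminal kinase pathway, and Ankrd55, reached 33.1.

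**Figure D5:**
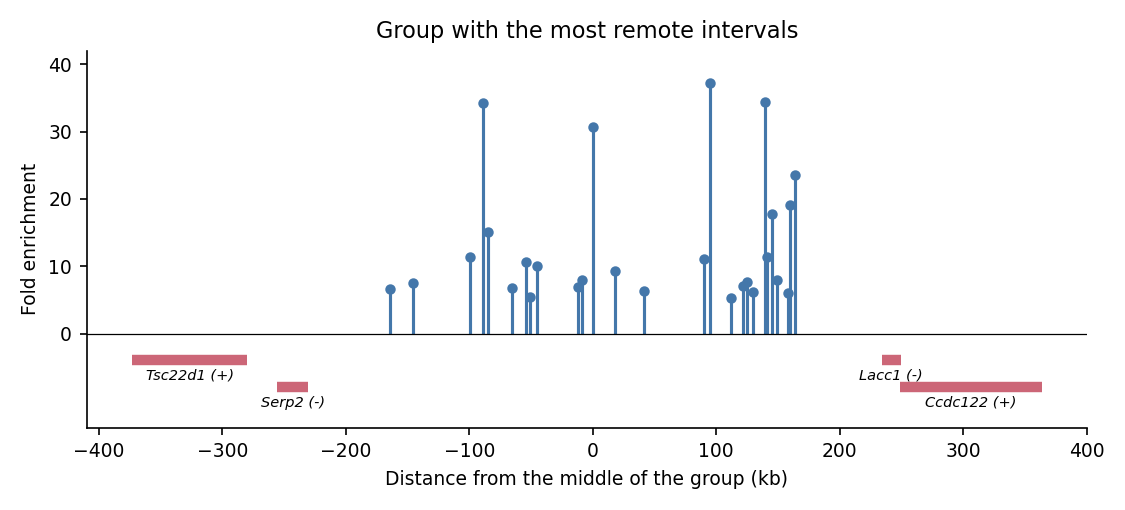
The 27 remote intervals of the group between Serp2 and Lacc1 are drawn as lines at their distance from the middle of the group (kb), with height for fold enrichment, above bars for the protein-coding genes around them with their strands. Members between 5.24 and 37.3 are spread over 328 kb without a protein-coding gene.

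Every member was assigned to the gene of its nearest protein-coding TSS, which gave 2444 genes, 11.9% of 20621 autosomal protein-coding genes. Of these, 820 had a single member and 148 had 10 or more, and those 148 held 24.1% of the members. The gene with the most members was Myc, the growth and proliferation factor, with 43 from 92.0 to 816 kb away and fold enrichments from 5.04 over a median of 8.84 to 42.1. Tbl1xr1 had 39, Nr2f2 35, Cited2 34, Adgrl2 26, Irs2 and Ppargc1a 23 each, Usp25 21, and Gadd45g and N6amt1 20 each. A gene in a large desert has more sequence to hold members. Per Mb of remote sequence nearest to the gene, read on a grid of positions 1 kb apart, Irs2, the insulin receptor substrate, had 76.2 members and Gadd45g, a stress-induced growth arrest gene, 72.2, Myc had 33.7, Nr2f2 23.4 and Adgrl2, an adhesion receptor, 13.1, against 9.80 over all remote sequence.

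Regulators of the nephron, a list of transcription factors, signals and receptors of kidney development and tubule identity, were the nearest gene of 341 members (3.996%, 3.60% to 4.43%). Remote sequence lay nearest to 69 of the 81 listed genes in the annotation, and 52 of these (75.4%, 64.0% to 84.0%) had a member, against 2444 of 4487 (54.5%) over all genes with remote sequence. The same list was nearest to 1.23% of nearer intergenic intervals and to 3.62% of remote intervals under the fold limit. The list's genes took up 2.43% of the remote sequence, and the density there was 16.1 members per Mb, against 9.48 for all remote sequence at the same distances. The median fold enrichment of these 341 members was 8.84, against 8.31 over the others.

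Nr2f2, the nuclear receptor COUP-TFII, led this list with 35 members from 50.6 to 827 kb, up to a fold enrichment of 33.8. Cited2, a co-regulator that binds CBP and p300, had 34 members up to 32.4, with a median of 11.1. Ppargc1a, the coactivator of mitochondrial biogenesis in tubule cells, had 23 members up to 28.8, all at 102 kb or farther. Pou3f3, a factor of the thick ascending limb and distal nephron, had 17 up to 20.8, and Sox9, a factor of the developing and injured tubule, had 17 up to 22.5. Maf had 16 up to 31.9, Sall1, a factor of nephron progenitors, had 15 up to 26.9, and Jag1, a Notch ligand, had 12 up to 22.1. Tfcp2l1, a factor of the collecting duct, had 10 members within 62.1 to 145 kb, up to 32.9, which came to 86.2 per Mb, and Bmp4, a growth factor of ureter development, had 10 up to 29.9.

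Genes of injury and stress responses were the nearest gene of 165 members (1.93%, 1.66% to 2.25%), against 1.72% (1.58% to 1.87%) of remote intervals under the fold limit. Of the 46 genes, 23 had remote sequence nearest to them and 19 of those (82.6%, 62.9% to 93.0%) had a member. The density was 28.8 members per Mb, against 10.1 for all remote sequence at the same distances, and 27.4 without Myc. Klf6, a zinc-finger factor induced by injury, had 19 members up to a fold enrichment of 32.3. Klf4 had 15 up to 21.5, Sox4 12 up to 25.8, and Klf5, a factor of the collecting duct epithelium, 11 up to 41.9. Jun, a subunit of AP-1 itself, had 11 between 53.4 and 227 kb, up to 24.7, or 61.8 per Mb. Tgfb2, a profibrotic growth factor, had 7 up to 18.8, Klf9 had 5 up to 17.4, and the receptor Tgfbr2 and its effector Smad3 had 4 each, up to 14.7 and 11.98. Sox9 is on this list and on that of nephron regulators.

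Regulators of other lineages were the nearest gene of 85 members (0.996%, 0.806% to 1.23%), against 0.765% of remote intervals under the fold limit. Of 37 genes with remote sequence nearest to them, 24 (64.9%, 48.8% to 78.2%) had a member. The density was 10.6 per Mb, against 11.3 for all remote sequence at the same distances. Foxa2, a factor of endoderm, had 16 members up to 20.1, and Runx1, a factor of blood that is also expressed in injured epithelium, had 13 up to 29.5. Gata6 had 8 up to 20.5, Sox2 6 up to 22.3, En1 4 up to 34.5 and Dlx2 4 up to 23.8, and Sox1 and Nkx6-1 had 4 each, up to 11.98 and 9.49.

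Although lncRNA starts were kept away by the rule, lncRNA gene bodies were not. The highest summit lay inside a lncRNA gene in 3387 members (39.7%, 38.7% to 40.7%), spread over 2040 lncRNA genes. This share was 32.4% in nearer intergenic intervals and 35.4% (34.9% to 35.9%) in remote intervals under the fold limit. Members inside had a median fold enrichment of 8.64 and those outside 8.18. Pvt1, the lncRNA downstream of Myc, held the most, 22 members with a median of 10.4 and a highest of 42.1, and that strongest one was also the strongest of the 43 nearest to Myc. Gm49936 held 16, Gm12729 and Gm30624 15 each and Gm31813 14, among them the interval of 54.1 before Tbl1xr1.

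The highest fold enrichments stood far above the rest. The strongest, chr17:40153882-40159728 at 884, overlaps the ribosomal RNA gene Rn18s-rs5. The next were chr2:98492577-98493326 at 591 and chr2:98495248-98495569 at 425, 1195 and 1197 kb from Lrrc4c, then chr3:5925384-5925889 at 392, chr12:3159872-3160114 at 379 and chr11:108902471-108902939 at 128. A gap followed, with chr2:49237830-49241701 near Mbd5 at 73.8, chr11:16540568-16543690 near Sec61g at 70.4, chr12:8427623-8432889 near Hs1bp3 at 65.0 and chr5:103512237-103517144 near Ptpn13 at 62.1. Sequence of the steep summits is shown for chr2:98492969-98493069 and chr12:3159920-3160020 (GRCm39, plus strand), both poor in G and C, at 32% and 35.0% of the 200 bp.
Chromosome 2 summit: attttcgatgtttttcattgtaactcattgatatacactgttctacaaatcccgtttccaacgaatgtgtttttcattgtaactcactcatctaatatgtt
Chromosome 12 summit: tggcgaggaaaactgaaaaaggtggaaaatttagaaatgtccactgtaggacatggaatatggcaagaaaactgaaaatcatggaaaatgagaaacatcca

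Copies of this sequence elsewhere in the assembly were counted with words of 31 bases. In the chromosome 12 window, 82.4% of the words occurred at least 10 times in the genome, up to 211 times. In the chromosome 2 windows no word reached 10 copies, and the highest was 8. Over all members, at least 50% of the words were repeated this often in 52 (0.609%, 0.465% to 0.798%). This share was 0.311% in nearer intergenic intervals and 1.28% in remote intervals under the fold limit. Any word repeated this often was in 5.65% of members, 6.15% of nearer intergenic intervals and 17.4% of remote intervals under the limit. The median fold enrichment of the 52 was 7.33. Only 1 of the 5 strongest members was among them. The part of unplaced copies in these values was not tested. The 6 members at 100 or more are 0.0703% of the whole.

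The widest members were chr2:167595769-167624953, 29185 bp with 90 summits, chr2:30594774-30617133, 22360 bp with 63 summits, and chr2:167639612-167654057, 14446 bp with 40 summits. The widest of all and the third lay 75.5 and 116 kb from Peds1, with fold enrichments of 44.5 and 25.9. The other, at 84.4 kb from 1700001O22Rik, had a GC content of 73.0% at its summit and a fold enrichment of 36.4.

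As a check of the tissue, summits within 1 kb of the TSS of marker genes were read from the same list. A fold enrichment of at least 5 was found for 9 of 12 kidney markers, among them Cdh16 at 162, Slc12a3 at 38.2, Lrp2 at 33.1, Umod at 20.8 and Slc34a1 at 9.56, while Aqp2 at 4.19 and the podocyte gene Nphs1 at 3.54 were among those under it. The Acly cKO mice carry the Cdh16-Cre transgene, and its part in the Cdh16 value was not tested. Of 12 markers of other organs, 3 passed, Mbp at 39.1, Krt10 at 18.7 and Gfap at 8.05, and 5 had no summit. The list held 15182 promoter intervals at this limit, and the share of all starts that pass is not given here. The map pools all cell types of the cortex, so fewer cells of a type and weaker accessibility per cell cannot be told apart.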

How the data were processed

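ATAC-seq of mouse kidney cortex was analysed from 1 pooled peak call. Reads were trimmed by the authors (fastp) and mapped to mm39 (Bowtie2 2.3.4.3), duplicates and multiply mapped reads were discarded, peaks were called (MACS3 3.0.0, q of 0.05), and blacklisted or non-standard sequence was taken out (BEDTools 2.29.1). Tool versions are from the methods and the submitters' processing notes. The deposited list gives the fold enrichment of each summit, a linear ratio, and the authors' -log10 q value. The deposited score and the summit offset were read only to place summits. A second deposited list holds the summits before filtering.

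Rows were joined into distinct intervals, and the summit with the highest -log10 q gave each its values. A TSS was the 5′ end of any transcript of a GENCODE M39 gene of that type, on GRCm39, the build of the files. Motifs and GC content were read from 200 bp windows. Shares have Wilson intervals and medians order-statistic intervals at 95%. No test was run, since no value belongs to a library. Members were named by rank of fold enrichment, distance, width, group size, motif and nearest gene. The members, motifs and gene lists were chosen with earlier results of these data known. Some genes of the lists are not reported here. The comparison within 40% to 50% GC and the densities per gene and list were added after the data were seen. On simulated data, all 12 annotation cases and all 3600 planted motifs were found. Software was samtools 1.23.1, matplotlib 3.10.9, numba 0.67.0, pysam 0.24.0, scipy 1.17.1, pandas 2.3.3 and numpy 2.4.6 under Python 3.11.15.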

Additional observations from a re-analysis of the deposited data

Results flagged for a closer look

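The list of summits before filtering is not used in the comparisons above. It held 874 summits that are not in the filtered list, 286 of them on autosomes and 8 at positions that met the remote rule apart from the fold limit, since that list gives no fold enrichment. Their -log10 q ran from 3.53 over a median of 22.3 to 1430, the last at position 3201488 of chromosome 6, 56934 bp from Vmn1r261. All 8534 highest summits of the remote intervals are in the unfiltered list with the same -log10 q. The removed summits were picked out because they carry a signal outside the main measurement, and the files hold no control sample to set it against.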

How the results depend on the processing

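No paired analysis was possible because the single peak call has no column for any library, and for the same reason no replicate could be left out. Values are called moved when they leave the 95% interval of the reported value, or 1.5 times for the count. With a fold enrichment of at least 10, 3221 intervals were left, with a median GC of 49.0%, CTCF in 10.2%, HNF1 in 11.1%, AP-1 in 24.1% and 42.4% inside a lncRNA gene. Beyond 100 kb there were 5355, with 47.0% GC, CTCF in 11.9%, HNF1 in 10.0%, 38.5% inside a lncRNA gene and 4.78% nearest to a nephron regulator. In windows of 400 bp, GC was 46.0%, CTCF 14.5%, HNF1 10.2%, HNF4 2.297% and AP-1 28.3%. With 1 mismatch fewer, CTCF was in 4.38% and HNF1 in 1.24%, and with 1 more, HNF4 was in 13.7% and AP-1 in 78.0%. In nearer intergenic intervals these were 8.03%, 0.782%, 13.2% and 73.6%. At these mismatch settings CTCF thus stayed lower in the remote intervals and HNF1 and AP-1 higher, while HNF4 was within counting error at both settings. Dropping the 2 members with a further summit inside a protein-coding gene moved none of the 8 values. Taking only the start of each gene as its TSS, chosen after seeing the data, gave 10042 intervals, a median GC of 48.5% and 43.6% inside a lncRNA gene, and left the other shares within their intervals. Windows of 40% to 50% GC, also added after the data were seen, had HNF1 in 10.3% and HNF4 in 2.21%. Nearer intergenic windows of that GC had HNF1 in 9.19% and HNF4 in 2.06%. AP-1 was in 23.2% of the remote and 21.7% of the nearer windows there. For all 3 motifs the intervals overlapped. Depth is unknown, and intervals cover counting error only.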
